A study of Mus musculus with 6 samples.

Results

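The Hippo pathway was followed through 10 genes, chosen by name, in cultured mouse retinal pigment epithelium (RPE), taken directly from the animal, that had or had not been given photoreceptor outer segments (POS). They are the secreted matricellular protein genes Ctgf and Cyr61, the ankyrin repeat gene Ankrd1, the angiomotin-like scaffold genes Amotl1 and Amotl2, the coactivator genes Yap1 and Wwtr1, the kinase genes Lats1 and Lats2, and the transcription factor gene Tead1. All 10 were present among the 12556 genes measured. The RPE is the pigmented layer that engulfs the tips shed by photoreceptors. Both groups were C57BL/6J cells from mice 10 to 12 days old, kept 5 to 6 days in culture on a permeable membrane (pore size 0.4 µm), each well holding the RPE of about 1 eye. The POS-challenged group (n = 3) received about 10 mouse POS per cell for 1.5 h and was then washed, and the unchallenged group (n = 3) received none. The labels call the 3 libraries of each group biological replicates and do not say whether these came from separate litters or days, so the p-values measure only the spread between these libraries.

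The Hippo pathway is a kinase cascade that restrains growth in response to cell contact, polarity and tension. LATS kinases, switched on by MST kinases, phosphorylate the coactivators YAP and TAZ (the product of Wwtr1) and hold them in the cytoplasm. When the kinases are off, YAP and TAZ enter the nucleus and bind TEAD factors, which sit on DNA. Ctgf, Cyr61 and Ankrd1 are among the best known targets of that complex, and Amotl2 and Lats2 are targets that in turn restrain YAP. YAP and TAZ activity is set largely by phosphorylation and location, which RNA levels do not measure. In the RPE, YAP is known for its part in specifying the tissue in the embryo.

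A promoter window for 8 of the 10 members is held in the RefSeq table (assembly GRCm38.p6, equivalent to mm10). Ctgf and Tead1 have no entry there. The 6-base core that TEAD factors recognise, GGAATG or its reverse complement CATTCC, was searched in the 250 bases before each start listed there, on both strands. A gene can have several transcript starts, so a window can lie within the gene. It was found for 5 of the 8 members (Cyr61, Ankrd1, Amotl2, Yap1 and Wwtr1), and 14.36% of the 27025 genes in the table hold it in at least 1 such window. The window of Cyr61 is shown whole because Cyr61 is one of the 2 most abundant members and has a match close to the start. It is read 5′ to 3′ on the minus strand at chr3:145649986-145650235, and the capitals mark the TEAD core, whose first base lies 103 bases before the start.

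Cyr61: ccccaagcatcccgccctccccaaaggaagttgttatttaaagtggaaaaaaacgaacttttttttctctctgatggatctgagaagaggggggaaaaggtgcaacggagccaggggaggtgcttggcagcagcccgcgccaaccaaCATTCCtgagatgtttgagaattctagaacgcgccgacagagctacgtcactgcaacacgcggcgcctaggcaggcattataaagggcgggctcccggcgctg

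For the other 2 target genes with a match, Ankrd1 and Amotl2, the 30 bases around each core are set side by side. The Ankrd1 stretches lie on the minus strand at chr19:36120037-36120066 and chr19:36119950-36119979, with the core starting 210 and 123 bases before the start. The Amotl2 stretch lies on the plus strand at chr9:102717727-102717756, with the core starting 65 bases before the start. All 3 stretches lie inside the spans of their genes in GENCODE M21 and overlap annotated exons there. Which transcripts these exons belong to was not recorded. The RefSeq span of Amotl2 begins upstream of its window, at 102717091. The Cyr61 window overlaps no annotated exon.
Ankrd1, distal: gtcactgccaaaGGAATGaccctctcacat
Ankrd1, proximal: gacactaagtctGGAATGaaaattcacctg
Amotl2: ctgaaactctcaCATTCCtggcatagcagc
Ankrd1 was the member with 2 matches, and 1.18% of the genes in the table have a window with at least 2. A looser shape that includes the CArG box of the factor SRF (CC, any 6 bases, then GG) was present in 7 of the 8 members' windows and in 69.25% of the genes in the table. A match is a string of letters, not a binding site, and these data hold no measure of factor binding.

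Ctgf and Cyr61 were among the most abundant transcripts of these cultures. Levels between genes are compared as normalized read counts per kilobase of the longest protein-coding transcript in GENCODE M21, in unchallenged libraries. On that scale Ctgf stood at 43128 ± 2581 (SD, n = 3) and ranked 14 of the 11827 genes with a length. Cyr61 stood at 31328 ± 2232 and ranked 18. The median over those genes was 240.47, so every member lay above it.

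The other members followed in steps on the per-kilobase scale. Amotl2, whose product holds YAP at junctions and actin, stood at 4290 ± 650 and the kinase gene Lats2 at 2853 ± 257. Wwtr1 at 2071 ± 37.4 lay above its paralogue Yap1 at 1642 ± 77.5. Amotl1 at 1344 ± 53.0 and Tead1 at 1228 ± 92.3 did not differ beyond their spread. Lats1 stood at 616 ± 23.9, below Lats2, and Ankrd1 was the lowest of the 10 at 361 ± 179. The other neighbours in this order were separated by more than their SDs.

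The comparison of challenged with unchallenged libraries asked whether transcripts of the pathway differed 1.5 h after contact with outer segments. None of the 10 members passed an adjusted p of 0.05 in limma with Benjamini-Hochberg adjustment over all 12556 genes, where 0.0956% of genes passed. Ankrd1, a target gene named for its ankyrin repeats, had an unadjusted limma p under 0.05 in the lower direction, as had 6.58% of all genes. The authors' deposited table called Ankrd1 lower, with an adjusted p of 0.0276, where 1.68% of genes were called lower and 0.871% higher. The median log2 fold change over the 10 members was -0.20, with 8 of 10 below 0. It was -0.10 without POS-challenged replicate 3 and -0.09 with quantile normalization. Over all genes the median was 0.0069, with 48.3% below 0. These all-gene figures are not matched for level, and most members were abundant (mean of at least 4000). All fold changes given here set challenged against unchallenged libraries after taking log2(value + 1).

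**Figure D1:**
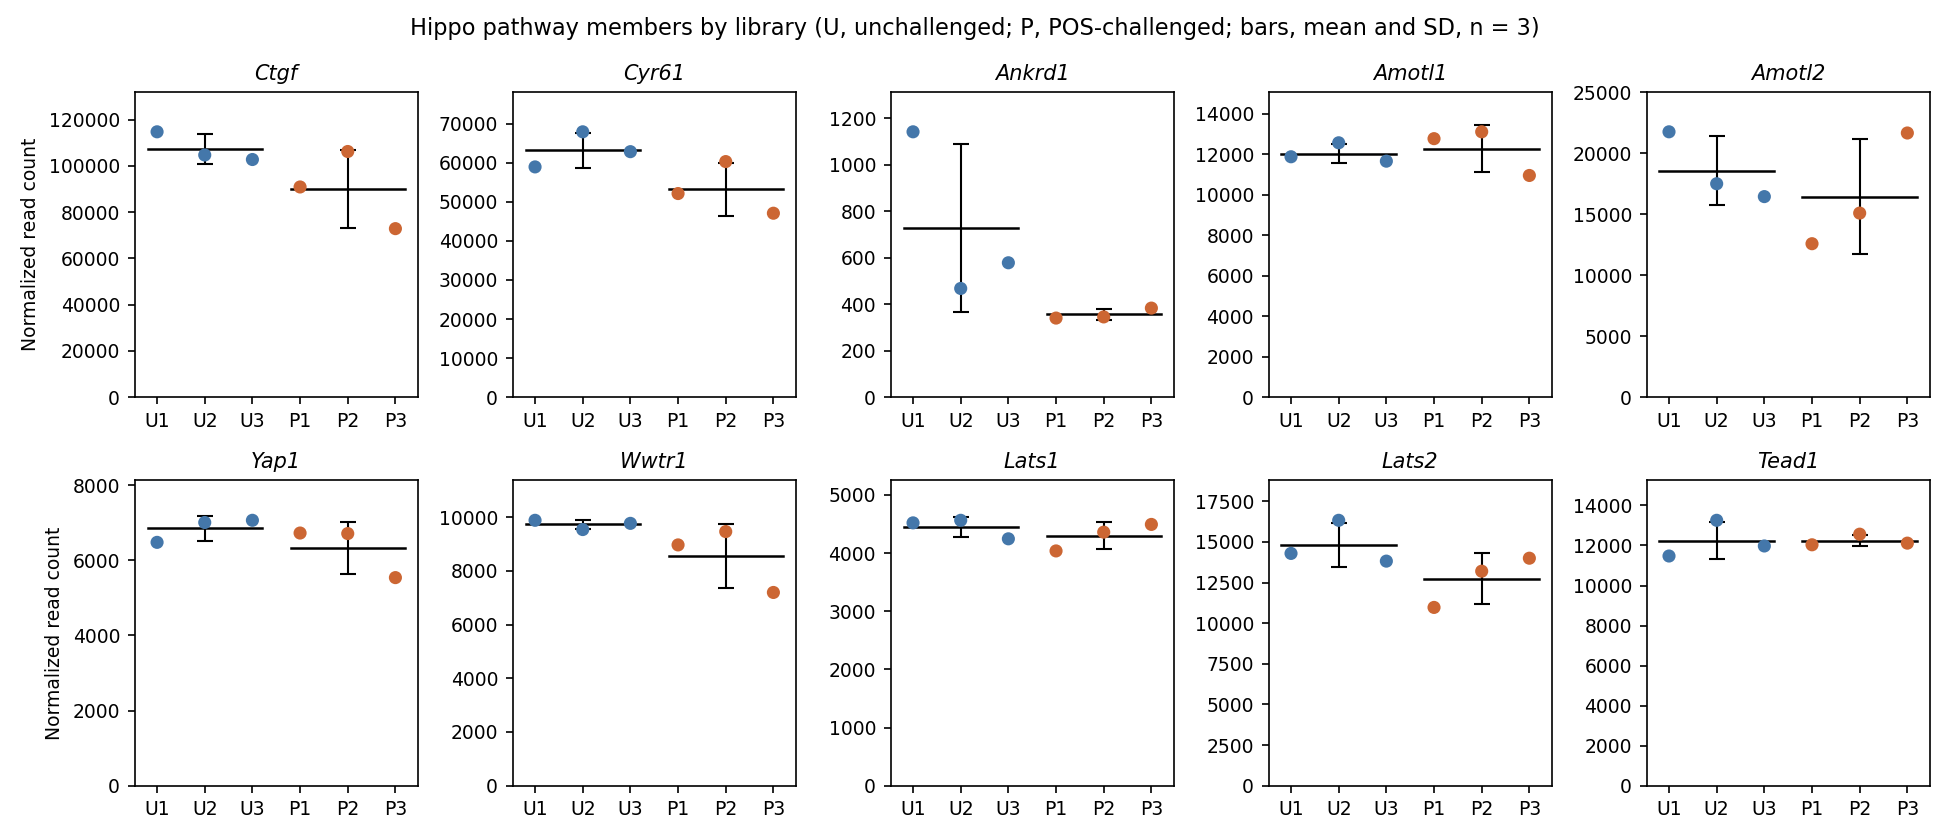
Normalized read counts of the 10 members in each library (U1 to U3, unchallenged replicates 1 to 3; P1 to P3, POS-challenged replicates 1 to 3), with the mean and SD of each group; every vertical axis starts at 0. The groups are apart for Ankrd1 and Wwtr1 and overlap for the other 8, and POS-challenged replicate 3 is the lowest library for 5 members.

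Ankrd1 showed the largest difference of the members. Its normalized read counts in replicates 1, 2 and 3 were 1141, 467 and 578 for unchallenged cells, against 340, 345 and 383 for challenged cells. The challenged values lay close together and below every unchallenged one, and unchallenged replicate 1 was the highest by a wide margin. The means were 729 ± 361 and 356 ± 23.4 (SD), and the log2 fold change was -0.92 ± 0.30 (SE; 95% interval -1.63 to -0.22; limma adjusted p = 0.355, and 0.14 to 1.0 over the alternative limma fits). Without unchallenged replicate 1 the log2 fold change was -0.55 (limma adjusted p = 0.486), and without unchallenged replicates 1 and 3, which leaves 1 unchallenged library, it was -0.39.

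Unchallenged replicates 1 and 3 stood apart from the other libraries in interferon-stimulated genes. The summed level of 10 such genes was 37963 and 48803 normalized read counts in those 2 libraries, 1795 in the remaining unchallenged library, and between 1397 and 7413 after challenge. Dcn, a proteoglycan gene of fibroblasts picked out after its values were seen, had the order of Ankrd1 among the unchallenged libraries, with 1878, 481 and 895 normalized read counts, and 443 to 502 in the challenged ones. Of the same list of 10 fibroblast and pericyte markers, Col1a1, Col1a2, Col3a1 and Lum also had this order among the unchallenged libraries. Their challenged values overlapped the unchallenged ones. The remaining genes of the list did not have this order. Pdgfra, Pdgfrb and Cspg4 were higher in every challenged library than in any unchallenged one, and Acta2 and Rgs5 were lowest in unchallenged replicate 1. The part of interferon-stimulated genes or of fibroblast markers in the Ankrd1 difference was not tested.

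Ctgf, the gene of connective tissue growth factor, had 114724, 104696 and 102744 normalized read counts unchallenged, and 90876, 106208 and 72862 challenged, in the order of the replicate numbers. The groups overlapped: POS-challenged replicate 2 exceeded 2 of the 3 unchallenged libraries, and POS-challenged replicate 3 was the lowest. The log2 fold change was -0.27 ± 0.16 (SE; 95% interval -0.65 to 0.11; limma adjusted p = 0.548). As a percent change that interval runs from -36.5% to 8.17%. Without POS-challenged replicate 3 the log2 fold change was -0.13.

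Cyr61, a paralogue of Ctgf that also codes for a secreted integrin-binding protein, had 58954, 67941 and 62858 normalized read counts unchallenged and 52136, 60318 and 47094 challenged. The groups overlapped through 1 pair of libraries, since POS-challenged replicate 2 lay above unchallenged replicate 1. The log2 fold change was -0.26 ± 0.13 (SE; 95% interval -0.55 to 0.04; limma adjusted p = 0.490). The p of the authors' deposited table was 0.0383 before adjustment and 0.366 after it. Without POS-challenged replicate 3 the log2 fold change was -0.17. Within a library, Ctgf counts were 1.54 to 1.95 times those of Cyr61 unchallenged and 1.55 to 1.76 times challenged, so the ratio overlapped between the groups.

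Ctgf and Cyr61 had the same lowest library, as did many abundant genes. POS-challenged replicate 3 was the lowest of the 6 libraries for 5 members (Ctgf, Cyr61, Amotl1, Yap1 and Wwtr1). Over all genes it was the lowest for 28.8% and the highest for 31.0%. Over the 1385 genes with a mean of at least 4000, a range that holds 9 of the 10 members, it was the lowest for 54.9% and the highest for 14.7%. Quantile normalization, which gives every library the same distribution, moved the log2 fold change of Ctgf to -0.17 and that of Cyr61 to -0.11.

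The coactivator genes showed small differences. Wwtr1, the gene of TAZ, had 9882, 9537 and 9768 normalized read counts unchallenged and 8966, 9462 and 7195 challenged. All 3 challenged values lay below the unchallenged ones, but POS-challenged replicate 2 did so by a narrow margin. Of all genes, 10.4% had challenged values wholly below unchallenged ones and 9.56% wholly above, beside 2 and 0 of the 10 members. The log2 fold change of Wwtr1 was -0.20 ± 0.11 (SE; limma adjusted p = 0.516), -0.08 without POS-challenged replicate 3 and -0.11 with quantile normalization.

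Yap1 had 6475, 7004 and 7062 normalized read counts unchallenged and 6724, 6709 and 5537 challenged. The groups overlapped, and only POS-challenged replicate 3 lay below all unchallenged libraries. The log2 fold change was -0.12 ± 0.09 (SE; 95% interval -0.34 to 0.10; limma adjusted p = 0.642), -0.03 without POS-challenged replicate 3 and -0.04 with quantile normalization. Tead1, whose product carries YAP and TAZ on DNA, had 11474, 13258 and 11976 normalized read counts unchallenged and 12035, 12565 and 12117 challenged. All 3 challenged values lay within the unchallenged range, with a log2 fold change of 0.0028 ± 0.08 (SE; 95% interval -0.18 to 0.19; limma adjusted p = 0.994).

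Of the LATS kinase genes, Lats2 had 14290, 16328 and 13816 normalized read counts unchallenged and 10967, 13197 and 13996 challenged. POS-challenged replicate 3 was here the highest challenged library and lay above unchallenged replicate 3. The log2 fold change was -0.22 ± 0.11 (SE; 95% interval -0.49 to 0.05; limma adjusted p = 0.499), and -0.12 without POS-challenged replicate 1 or -0.10 with quantile normalization. Lats1 had 4519, 4563 and 4244 normalized read counts unchallenged and 4036, 4359 and 4492 challenged, with overlapping groups. Its log2 fold change was -0.05 ± 0.07 (SE; 95% interval -0.21 to 0.11). It was -0.0048 without POS-challenged replicate 1, and the sign turned to 0.01 with quantile normalization.

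The angiomotin-like scaffolds, which bind YAP and tie it to junctions and actin, differed in spread. Amotl2 had 21758, 17501 and 16445 normalized read counts unchallenged and 12584, 15092 and 21660 challenged. POS-challenged replicates 1 and 2 lay below every unchallenged library, while POS-challenged replicate 3 lay just under the highest of them. The log2 fold change was -0.20 ± 0.20 (SE; 95% interval -0.68 to 0.28; limma adjusted p = 0.724). It was -0.42 without POS-challenged replicate 3, -0.03 without POS-challenged replicate 1, -0.08 without unchallenged replicate 1 and -0.07 with quantile normalization. Amotl1 had 11878, 12569 and 11661 normalized read counts unchallenged and 12773, 13111 and 10954 challenged, on both sides of the unchallenged range. Its log2 fold change was 0.03 ± 0.09 (SE; 95% interval -0.18 to 0.23; limma adjusted p = 0.933).

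**Figure D2:**
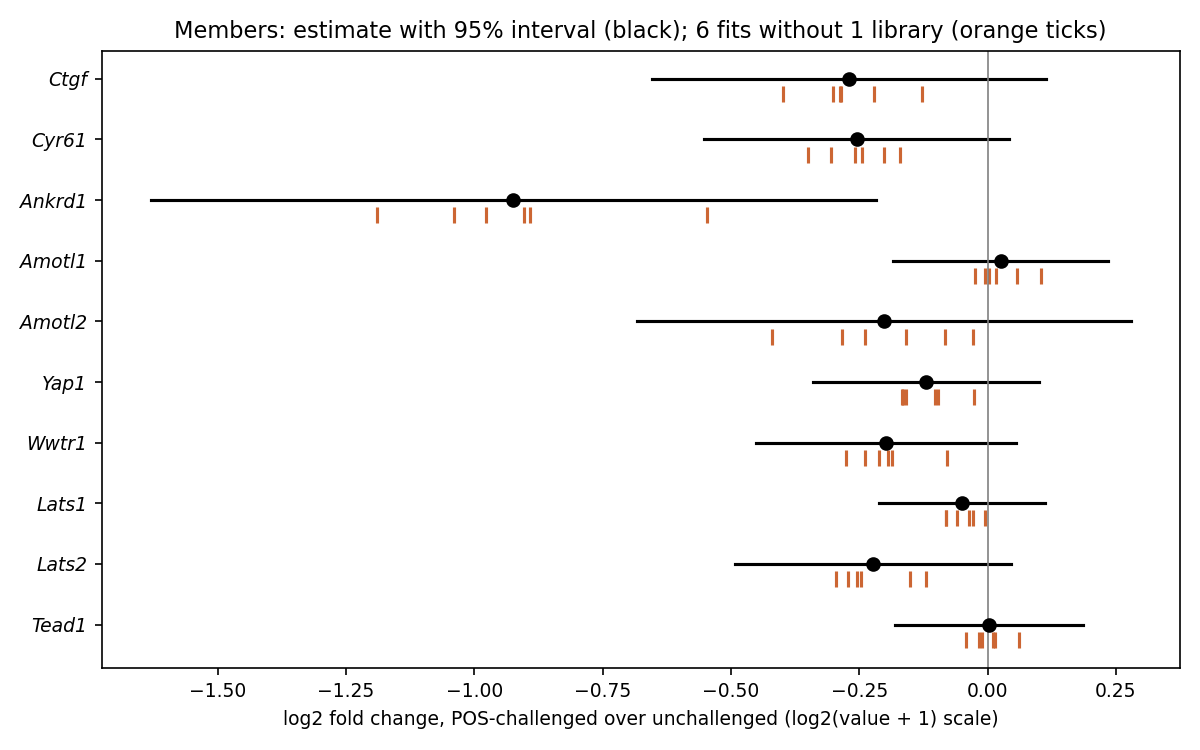
Log2 fold change of each member, challenged over unchallenged, with its 95% interval from limma (black, n = 3 per group), and the estimates of the 6 fits that leave out 1 library (orange ticks). The interval of Ankrd1 runs from -1.63 to -0.22 before adjustment over all genes, and the intervals of the other 9 members include 0.

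In bulk libraries, fewer cells of a type and less RNA per cell cannot be told apart. The cultures carried transcripts listed as markers of RPE and of mesenchymal cells, and such libraries do not give the cell of origin. Of 15 RPE markers, 14 were measured, with summed levels of 34231 to 46901 unchallenged and 32113 to 52524 challenged. All 10 markers of choroid fibroblasts and pericytes were measured, with 128898 to 141616 and 119195 to 159088. Of the RPE markers, Best1 was not listed among the genes measured. Rpe65 was low, at 103 to 207 normalized read counts, while Tyr stood at 15831 to 26214. The summed levels of these 2 lists overlapped between the groups, although Pdgfra and Pdgfrb were called higher in the authors' deposited table (adjusted p = 0.00334 and 0.0176). Of 16 photoreceptor markers, Sag and Cdhr1 were measured, and their sum went from 109 to 153 unchallenged to 926 to 1538 challenged. The part of cell makeup in the members' values was not tested.

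Other genes of the pathway were read from 6 lists that hold 83 measured genes beside the members. In limma 0 of the 83 passed, 3 were higher and 9 lower at an unadjusted p under 0.05, beside 4.87% and 6.58% of all genes, and their median log2 fold change was -0.05. The authors' deposited table called 2 lower, Frmd6 and Mpp5, and 1 higher, Nuak2, beside 1.68% and 0.871% of all genes. These 3 genes were named after their values were seen. Of the 83, 10 had challenged values wholly below unchallenged ones and 4 wholly above, beside 10.4% and 9.56% of all genes.

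Among upstream scaffolds and inputs (28 measured of 35, the 2 angiomotin-like members included, median log2 fold change 0.01), the largest difference was that of Frmd6. Frmd6 codes for a FERM-domain protein, also called Willin, that acts upstream of the Hippo kinases. It had 5870, 4733 and 4423 normalized read counts unchallenged and 2941, 3405 and 2738 challenged, with no overlap between the groups. The means were 5009 ± 762 and 3028 ± 342 (SD), and the log2 fold change was -0.72 ± 0.13 (SE; limma adjusted p = 0.195; adjusted p = 0.000129 in the authors' deposited table).

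Mpp5, which codes for the polarity scaffold PALS1, had 4579, 4738 and 4470 normalized read counts unchallenged and 3611, 3960 and 3258 challenged. The groups did not overlap (log2 fold change -0.35 ± 0.08 SE; limma adjusted p = 0.250; adjusted p = 0.0319 in the authors' deposited table). At an unadjusted limma p under 0.05, Rassf1, which codes for a scaffold that binds MST kinases, and the giant cadherin gene Fat4 had lower values (log2 fold changes -0.30 and -0.39). Dlg5, a polarity scaffold gene, had higher ones (0.23). The most abundant other members of the list, Fat1, Ctnna1 and Wwc2, had log2 fold changes of 0.20, -0.09 and 0.02.

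Among Hippo kinases and adaptors (18 measured of 21, the LATS genes included), 13 had a negative log2 fold change, beside 48.3% of all genes. The median of the list was -0.08, with a range of -0.26 to 0.19. Sav1, the adaptor that joins MST to LATS kinases, had 2730, 2745 and 2801 normalized read counts unchallenged and 2490, 2468 and 1986 challenged. Taok2, a kinase gene upstream of the cascade, had 2441, 2288 and 2339 unchallenged and 2553, 2587 and 2673 challenged. The groups were apart for both, in opposite directions (log2 fold changes -0.26 and 0.14; limma adjusted p = 0.393 and 0.427). Of all genes, 10.4% were apart in the lower direction and 9.56% in the higher. Of the nuclear effectors and TEAD cofactors, 8 of 10 were measured, with a median of -0.14. Vgll3 and Vgll4, which code for cofactors that bind TEAD in place of YAP, had log2 fold changes of -0.21 and -0.35 (limma adjusted p = 0.463 and 0.408).

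A signature of YAP and TAZ targets, known mainly from human cells, had 20 of 22 genes measured, including Ctgf, Cyr61, Ankrd1, Amotl2 and Lats2. Its median was -0.06 with 14 of 20 below 0, beside 48.3% of all genes. The 15 genes that are not members had a median of -0.0092 with 9 below 0. The targets did not move one way. Nuak2, which codes for a kinase that acts back on YAP, had 7071, 8619 and 7091 normalized read counts unchallenged and 9557, 10403 and 9568 challenged. The challenged libraries were all higher (log2 fold change 0.38 ± 0.10 SE; limma adjusted p = 0.264; adjusted p = 0.0381 in the authors' deposited table).

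Going the other way, F3, the tissue factor gene, had 52858, 57719 and 50111 normalized read counts unchallenged and 41418, 45316 and 24532 challenged. Axl, a receptor tyrosine kinase gene of the family of Mertk, had 24164, 17071 and 19034 unchallenged and 14896, 17045 and 14652 challenged. For both genes the challenged values lay below the unchallenged ones, for Axl by a narrow margin (log2 fold changes -0.58 and -0.36; limma adjusted p = 0.408 and 0.404). Such separation held for 10.4% of all genes. The abundant targets Crim1 and Myof had log2 fold changes of 0.08 and -0.0092.

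**Figure D3:**
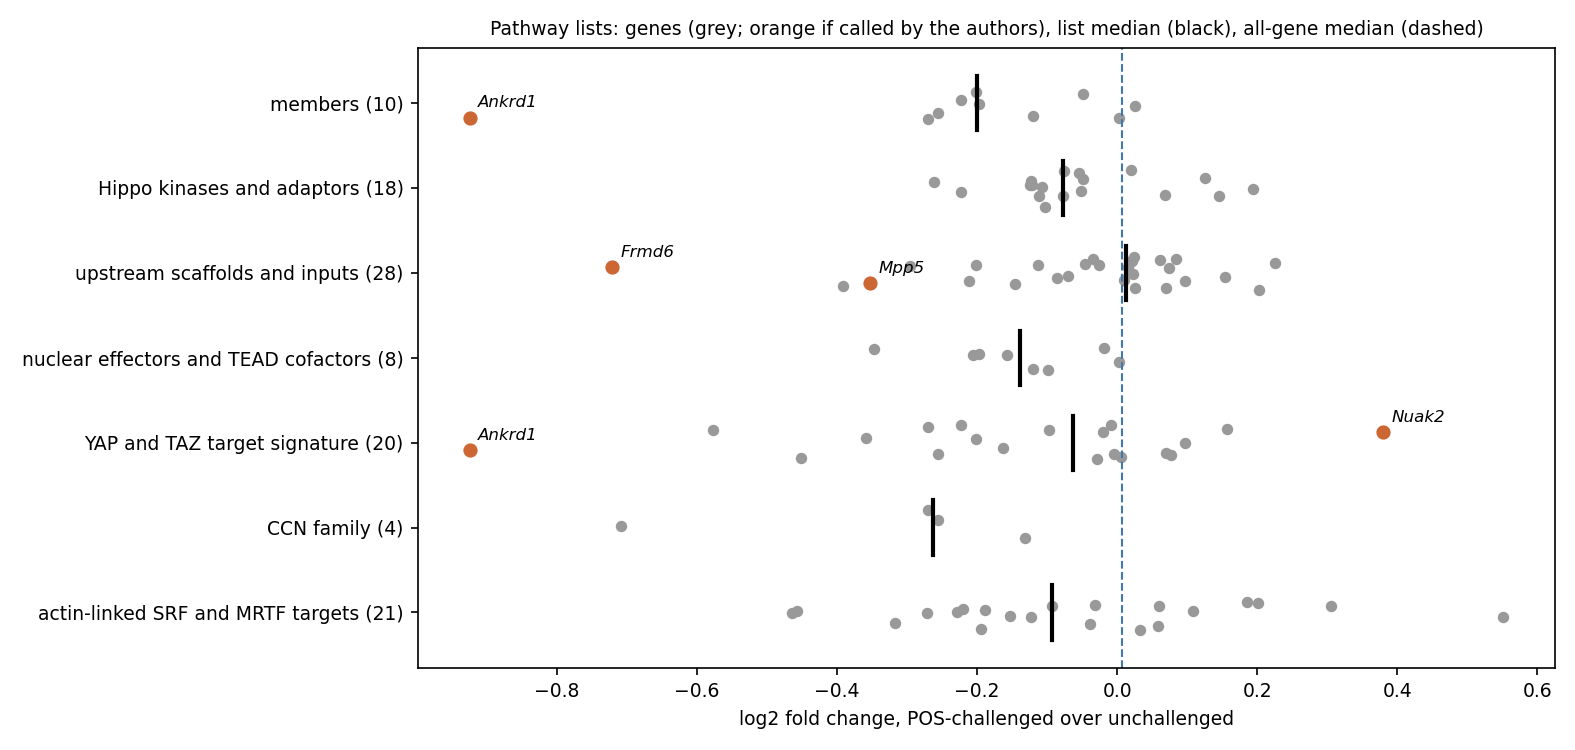
Log2 fold change of each measured gene in the members and 6 pathway lists (number measured in parentheses; a gene can stand in several lists), with the list median as a black bar and the median of all genes as a dashed line; vertical position within a list carries no value. Orange marks the 4 genes called in the authors' deposited table: Ankrd1, Frmd6 and Mpp5 lower and Nuak2 higher.

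**Figure D4:**
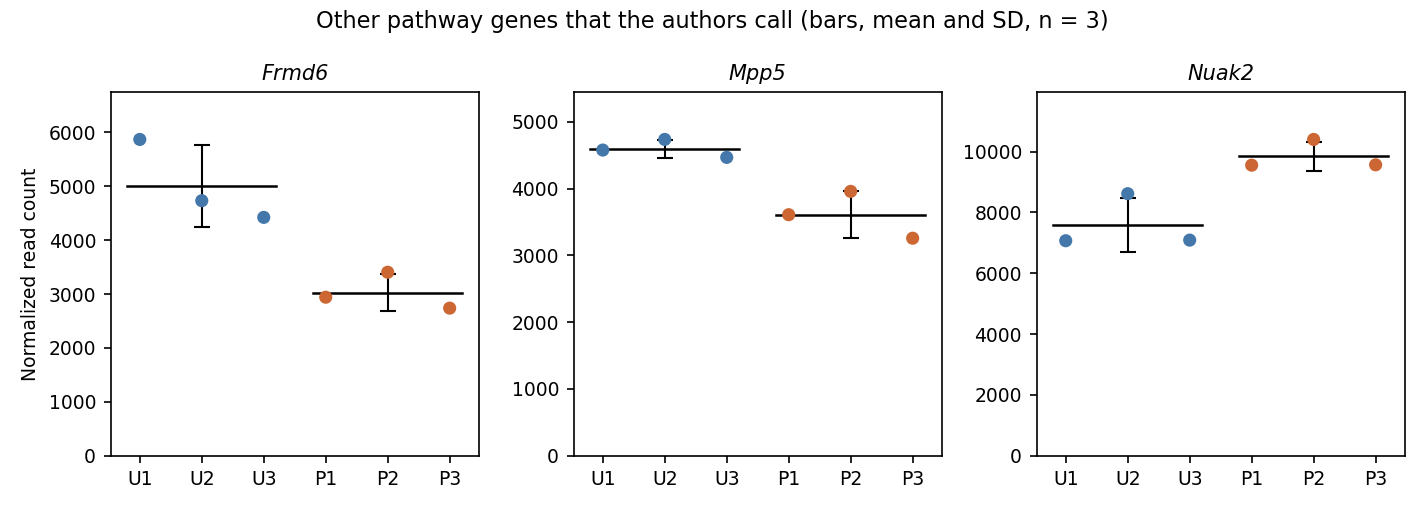
Normalized read counts of Frmd6, Mpp5 and Nuak2 in each library (U, unchallenged; P, POS-challenged), with the mean and SD of each group (n = 3) and axes from 0. The 3 genes are shown because the authors' deposited table calls them, while limma called none of them. That choice favours groups that do not overlap, as seen for all 3. Of all genes, 10.4% had challenged values wholly below unchallenged ones and 9.56% wholly above.

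In the family of secreted CCN proteins, 4 of 6 genes were measured. Beside Ctgf and Cyr61, Nov stood at 360 ± 50.3 and 329 ± 50.7 normalized read counts and Wisp2 at 48.1 ± 23.0 and 27.3 ± 3.59. All 4, of which Ctgf and Cyr61 are also members, had negative log2 fold changes, beside 48.3% of all genes. Their median was -0.26, and it was -0.15 without POS-challenged replicate 3 and -0.16 with quantile normalization. In limma 0 passed (0 at an unadjusted p under 0.05, and 0 in the authors' deposited table). Genes linked to actin and the factor SRF, which also controls Ctgf and Cyr61, had 21 of 21 measured and a median of -0.09 that turned to 0.04 with quantile normalization. Of these, Srf itself stood at 3479 ± 415 and 2567 ± 656, Flna at 97903 ± 3759 and 96337 ± 12882, and Actb at 89072 ± 4507 and 78993 ± 16596 (limma adjusted p = 0.417, 0.951 and 0.679).

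The genes most like Ctgf and Cyr61 across the 6 libraries were named by the Euclidean distance between log2(value + 1) profiles centred on each gene's mean, over 10249 other genes with a mean of at least 100. Nearest to Ctgf was Tagln2, an actin-binding transgelin gene, at a distance of 0.0353 against a median of 0.614, followed by Dusp7, Vasp, Slc25a37 and Pde1b at 0.0676 to 0.0882. Nearest to Cyr61 were Cadm4, Spef1, Atxn7, Il3ra and Myo1c, at 0.0925 to 0.140 against a median of 0.534. Cyr61 ranked 472 in distance from Ctgf, and Ctgf ranked 653 from Cyr61. Among the members, Wwtr1 ranked 68 from Ctgf and 185 from Cyr61, and Yap1 ranked 976 and 242.

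Ankrd1 had another profile, at rank 9913 from Ctgf and 10027 from Cyr61. Its nearest genes, a search added after its values were seen, were Birc3, Col5a3, Lancl3, Stac2 and Ntn1, at distances of 0.256 to 0.321 against a median of 1.52. Each of these was highest in unchallenged replicate 1. These distances describe 6 libraries that share the scaling and depth of each library.

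**Figure D5:**
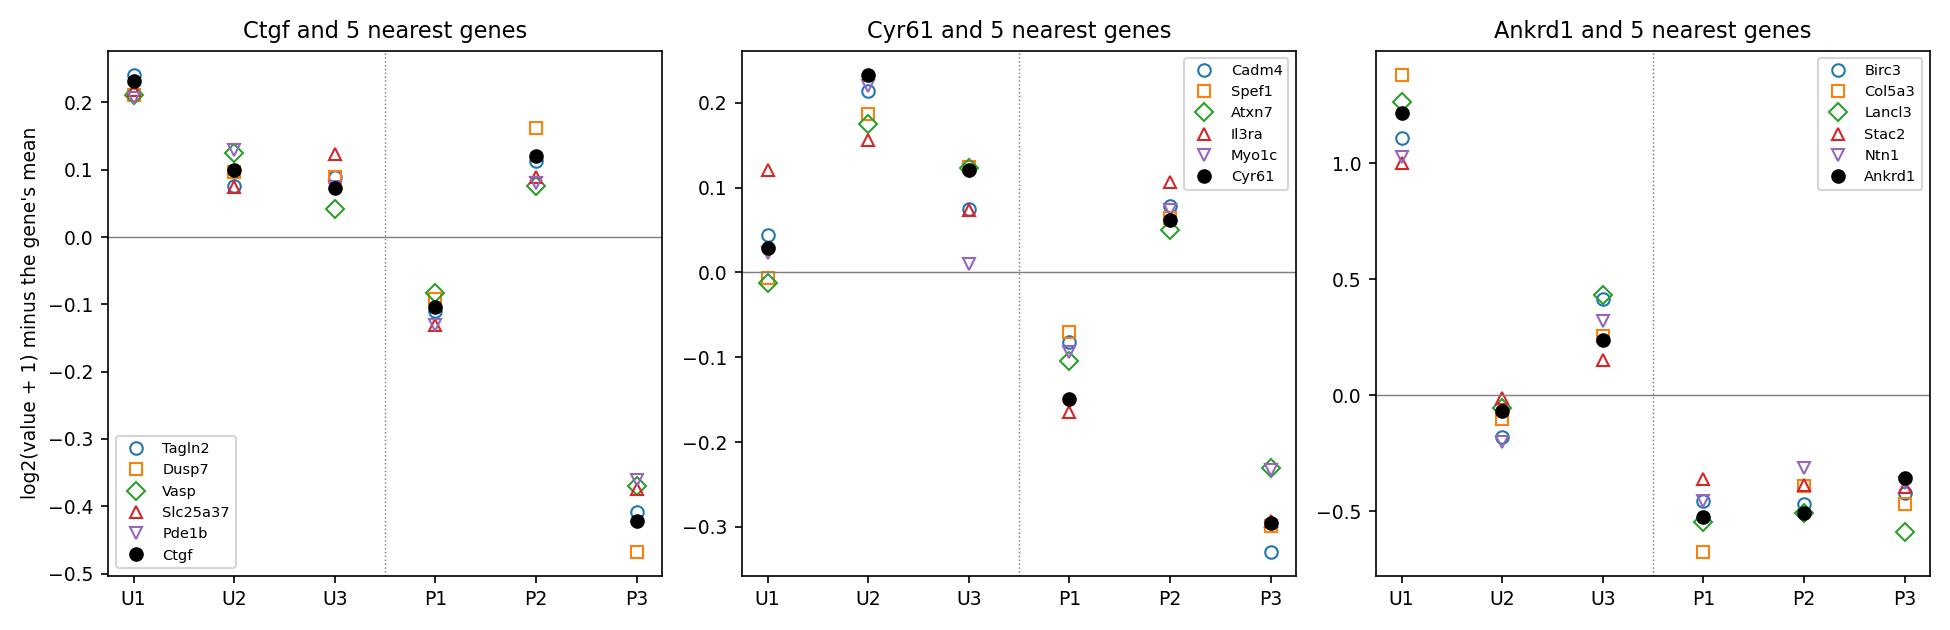
Level of Ctgf, Cyr61 and Ankrd1 (black) and of the 5 genes nearest to each, as log2(value + 1) minus the gene's mean, in the 6 libraries (U, unchallenged; P, POS-challenged; the dotted line parts the groups). Ctgf and Cyr61 with their neighbours are lowest in POS-challenged replicate 3, and Ankrd1 with its neighbours is highest in unchallenged replicate 1.

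On GRCm38 the members lie on 6 chromosomes. Ctgf (Entrez Gene 14219, listed as Ccn2 in GENCODE M21) spans 24595442 to 24598683 on chromosome 10, where Lats1 (16798) spans 7681214 to 7716460. Cyr61 (16007, listed as Ccn1) spans 145646976 to 145649981 on chromosome 3, where Wwtr1 (97064) spans 57455649 to 57575910. Yap1 (22601), Amotl1 (75723) and Amotl2 (56332) lie on chromosome 9, from 7931999 to 8004596, from 14541966 to 14645056 and from 102716672 to 102733418. Ankrd1 (107765) spans 36111961 to 36120099 on chromosome 19, Lats2 (50523) 57689662 to 57758388 on chromosome 14 and Tead1 (21676) 112679318 to 112906807 on chromosome 7. The sources used here do not say whether reads were counted by strand. The values of 3 members are uncertain to that extent or by a shared exon: Ctgf shares 665 exonic bases with the antisense gene Gm15270, Yap1 shares 116 with the antisense gene Gm20416, and Lats2 shares 2955 on the same strand with Gm49361, all 3 not analysed here.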

How the data were processed

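Poly(A) RNA gave 6 libraries, sequenced over 2 lanes each (Illumina Genome Analyzer IIx, per the labels). Reads had been processed with GSNAP and DESeq2 on mm10, per the submitters' processing notes, which give no versions. The sources used here name no counting tool, annotation or strand setting. The deposited library columns are a signal: read counts that the authors divided by a size factor per library, since every value is a whole multiple of one step per library (within 0.001). The reads so implied came to 24869273 to 30420028 per library, and every gene had at least 87 over the 6. The deposited table also holds the authors' log2 fold change with its SE, a score headed only stat, and p-values before and after adjustment. For 500 genes there is no adjusted p-value.

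Values were tested with limma 3.58.1 (R 4.3.3) on log2(value + 1) with a mean-variance trend, keeping genes whose mean was 10 or more, group as the only term, all 6 libraries and Benjamini-Hochberg adjustment over 12556 genes, with calls at 0.05 (4 residual and 3.22 prior degrees of freedom). The script was tested on simulated data. Exact permutation of 3 against 3 libraries gives no two-sided p under 0.1, so it was not used. Libraries of a group differed beyond sampling noise (chi-square per degree of freedom 8.58 to 61.8). The labels give no batch.

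The members and lists were chosen with earlier results of these data known. Named genes were all members, list members past the threshold, up to 4 others per list by level, and the 5 nearest to Ctgf and to Cyr61; the remaining ones named, such as Frmd6, Mpp5, Nuak2, Sav1, F3, Axl and Dcn, were chosen after their values were seen. Not every gene the rule allowed is reported, and planned searches of protein sequences were not made. Promoter sequences are RefSeq's for GRCm38.p6, and lengths and spans are GENCODE M21's, matched by Entrez Gene identifier.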

Additional observations from a re-analysis of the deposited data

How the results depend on the processing

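None of the 10 members passed in any of the 13 alternative limma fits, and 1 (Ankrd1) passed in the authors' deposited table. Over all lists, 0 genes passed in those fits and 4 in the authors' table. Of the 13 fits, the one with no minimum mean repeated the fit reported, since the minimum mean of 10 left out none of the 12556 genes. Over all genes, 12 passed in the fit reported, 308 in the authors' table, 1 with the replicate number as a block, 0 without unchallenged replicates 1 and 3, and 1 to 120 when 1 library was left out (120 without unchallenged replicate 2), while 6 alternatives stayed within 1.5 times. With the replicate block, 0 members and 0 list genes passed. The replicate numbers are not shown to pair libraries: deviations from the group mean correlated at -0.351, 0.172 and 0.173 for numbers 1, 2 and 3, and not every library correlated best with its own number. Signs reversed only for members with log2 fold changes near 0: Amotl1 to -0.0055 and -0.024 without POS-challenged replicates 1 and 2 in turn and to -0.038 without unchallenged replicates 1 and 3, Tead1 to -0.042 and -0.011 without unchallenged replicates 1 and 3 in turn, to -0.016 without POS-challenged replicate 2 and to -0.12 without unchallenged replicates 1 and 3 together, and Lats1 to 0.013 with quantile normalization. The cause was not tested. Leaving out 1 library moved Amotl1 between -0.024 and 0.10, Tead1 between -0.042 and 0.062, Ctgf between -0.40 and -0.13, Cyr61 between -0.35 and -0.17, Amotl2 between -0.42 and -0.028, Lats2 between -0.30 and -0.12, Yap1 between -0.17 and -0.027, Wwtr1 between -0.28 and -0.079, Lats1 between -0.082 and -0.0048, the median of the 10 members between -0.23 and -0.10 and Ankrd1 between -1.19 and -0.55. Count models on the implied reads were not run. The precision is set by 3 libraries per group, and a p above the threshold does not show equal levels.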
